A study of Homo sapiens with 4 samples.

Results

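The lysosome, V-ATPase and autophagy genes described here are 40 named genes, all of them present among the 59384 readable gene names of an RNA sequencing count table from Daoy cells, an established human medulloblastoma line. They were chosen by name: 15 subunits and accessory proteins of the vacuolar proton pump, 6 cathepsins, 3 membrane glycoproteins or tetraspanins, 6 lumenal and lipid-handling proteins, the transcription factor TFEB and 9 autophagy genes. In the shFABP4 group (2 libraries, genotype given as FABP4 knockdown) the cells carried a lentiviral short hairpin against FABP4, a cytosolic fatty acid binding protein. In the pLKO group (2 libraries, genotype given as WT) they carried the pLKO virus, the control. Both groups were therefore virus-infected. The labels give neither the hairpin sequence nor the time after infection. They also do not tell separate cultures from repeat libraries of 1 culture, so the p-values below rest on a spread that may be technical.

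Lysosomes are acidic organelles that break down proteins, lipids and carbohydrates delivered by endocytosis and autophagy. The V-ATPase acidifies them: its cytosolic V1 sector hydrolyses ATP and its membrane V0 sector carries protons. TFEB, when it is free to enter the nucleus, binds the sequence TCACGTGA and shorter forms around CACGTG in promoters of many lysosomal genes, and autophagy genes supply the membranes and adaptors that bring cargo to the lysosome.

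That promoter sequence was looked up in the 300 bases around each gene start (250 before and 50 after, RefSeq, GRCh38.p14), because it is the sequence the lysosomal genes are best known to share. A promoter was matched for 31 of the 40 genes; the others are ATP6V0E1, ATP6V1A, ATP6V1B2, ATP6V1C1, ATP6V1H, CTSB, LAMP2, HEXA and PSAP. The 6 letters CACGTG, which read the same on both strands, were present for 7 of these 31 genes (22.6%), ATP6V0B, ATP6V0D1, ATP6V1G1, CD63, CTSA, CTSD and LAMP1, against 8.77% of all 27305 genes with a promoter in the table. TCACGTG on either strand was present for 6 of the 31 (19.4%, against 4.49%) and TCACGTGA for 4 (12.9%, against 1.18%). Each shorter motif lies within the longer ones, so these counts overlap. The promoters of the 4 genes with TCACGTGA follow, with every CACGTG in capitals. They are ATP6V0D1 (chr16:67481108-67481407, minus strand), LAMP1 (chr13:113296989-113297288, plus strand), CTSA (chr20:45891085-45891384, plus strand) and ATP6V1G1 (chr9:114587519-114587818, plus strand).
ATP6V0D1: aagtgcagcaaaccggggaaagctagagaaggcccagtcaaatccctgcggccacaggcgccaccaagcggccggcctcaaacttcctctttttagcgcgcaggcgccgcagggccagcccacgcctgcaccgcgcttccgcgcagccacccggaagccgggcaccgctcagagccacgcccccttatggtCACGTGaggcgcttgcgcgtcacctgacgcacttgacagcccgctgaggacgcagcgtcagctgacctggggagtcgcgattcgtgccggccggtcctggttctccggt
LAMP1: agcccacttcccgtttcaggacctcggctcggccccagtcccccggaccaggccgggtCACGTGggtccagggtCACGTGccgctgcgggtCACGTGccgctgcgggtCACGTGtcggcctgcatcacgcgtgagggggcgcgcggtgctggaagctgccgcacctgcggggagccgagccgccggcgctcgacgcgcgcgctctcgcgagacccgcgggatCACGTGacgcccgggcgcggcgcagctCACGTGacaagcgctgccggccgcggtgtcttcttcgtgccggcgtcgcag
CTSA: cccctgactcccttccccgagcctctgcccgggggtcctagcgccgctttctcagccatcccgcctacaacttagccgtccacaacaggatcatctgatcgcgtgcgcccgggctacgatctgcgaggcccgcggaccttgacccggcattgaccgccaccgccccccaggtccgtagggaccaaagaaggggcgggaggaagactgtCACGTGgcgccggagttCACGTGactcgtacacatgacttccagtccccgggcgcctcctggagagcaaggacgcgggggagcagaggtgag
ATP6V1G1: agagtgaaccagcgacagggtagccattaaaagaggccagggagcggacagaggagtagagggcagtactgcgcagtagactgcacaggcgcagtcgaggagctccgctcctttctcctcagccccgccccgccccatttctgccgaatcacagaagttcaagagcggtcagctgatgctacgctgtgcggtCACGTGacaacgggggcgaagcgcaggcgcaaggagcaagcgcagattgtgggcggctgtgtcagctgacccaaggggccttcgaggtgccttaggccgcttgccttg
LAMP1 held 6 copies of CACGTG, from 192 bases before its start to 1 base before it, CTSA held 2, and ATP6V0D1 and ATP6V1G1 held 1 each, 59 and 58 bases before the start. A match describes the letters only and does not show that a factor binds there.

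The 2 shFABP4 libraries were unlike each other. Library shFABP4 1 held 2539862 counted fragments and library shFABP4 2 held 20431660, against 8988961 and 13839885 in the pLKO libraries. Coding genes at 0 in shFABP4 2 and in both pLKO libraries still held fragments in shFABP4 1. Pooled in 6 bins of GC content, their rates ran from 3.78 to 18.3 fragments per kb of exon, more at higher GC content. At these rates a background spread over all genes made up 54.7% of that library. Single genes strayed from these rates: TYROBP and ATOH1, at 0 in the other libraries, had 48 and 5 fragments where 14.7 and 23.0 were expected. An expected background is thus a mean rate, not a bound for a gene. FABP4 itself had 14 fragments in shFABP4 1 (5.18 expected from background) and 0 in shFABP4 2 (which allows up to 0.147 CPM), against 1 and 6 in the pLKO libraries, so its counts do not check the knockdown label. Of 12 macrophage markers, 8 were at 0 in shFABP4 2 and 9 and 7 in the pLKO libraries, with summed levels of 1.91 CPM in shFABP4 2 and 3.89 and 4.84 CPM in pLKO. The sum was 524 fragments in shFABP4 1, where 349 were expected from background. Of 12 granule lineage and Daoy markers, ATOH1, BARHL1 and NEUROD1 had at most 1 fragment in any library other than shFABP4 1, and ZIC1 and MYCN at most 3. The other 7 (VIM, GLI1, GLI2, PTCH1, ZIC2, SOX9 and NES) were all called higher in shFABP4 2 than in pLKO, by 0.71 (NES) to 2.45 (PTCH1) on the log2 scale (edgeR without shFABP4 1). VIM, the most abundant, had 2830 and 131016 fragments in shFABP4 and 13811 and 21475 in pLKO, and rose by 1.96 among the high-signal genes defined below (adjusted p = 0.0412, edgeR). These markers moved in the same libraries as the genes described below, and their part in those results was not tested.

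For this reason the 40 genes were read in 3 ways. All 4 libraries were compared over every gene that passed a low-count filter (14735 genes). They were then compared over 1040 high-signal genes, coding genes whose RNA in shFABP4 1, predicted from their pLKO share alone, was at least 5 times the expected background. Library shFABP4 2 was also set against the pLKO pair with shFABP4 1 left out (15301 genes). Of the 40 genes, 39 entered the first, 11 the second and 39 the third. The 11 high-signal genes were ATP6V0B, ATP6V0E1, ATP6V1E1, ATP6V1F, CTSB, CTSD, CTSL, CD63, NPC2, PSAP and GRN. The gene nearest below the limit of 5 was GABARAPL2, at 4.98 times the background, and the gene nearest above it was ATP6V1E1, at 5.43. Values per library are given below as normalised CPM, counts relative to a library size that is set by the high-signal genes (TMM). By these genes the size of shFABP4 1 was 0.0582 of the pLKO mean, by library totals 0.223 and by all genes 0.460, so its values would be far lower by all genes. That shFABP4 1 lies above or below pLKO is thus stated here for the high-signal scaling only.

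Levels of the 40 genes spanned a wide range, and both lumenal and pump genes were found near the top and among the low genes. Together the 40 genes took up 0.344% of library shFABP4 1 and 1.18% of library shFABP4 2, against 0.955% and 0.961% in the pLKO libraries. Per kb of merged exon, the highest levels in pLKO were those of PSAP, the precursor of the saposins that assist sphingolipid breakdown (425 and 429 FPKM), ATP6V1F, the F subunit of the pump (424 and 435), and GRN, progranulin (361 and 359). PSAP and ATP6V1F differed by less than the spread between the 2 libraries. CTSD, the aspartic protease cathepsin D, followed at 245 and 249 FPKM, and ATP6V0E1, subunit e of V0, at 219 and 224. CD63, a tetraspanin of late endosomes, ATP6V0B, a proteolipid subunit of V0, and CTSL, cathepsin L, lay close together (135 to 147 FPKM). CTSB, the cysteine protease cathepsin B, was at 102 and 99.7 FPKM and NPC2, which carries cholesterol in the lysosomal lumen, at 67.9 and 67.6. The other 30 genes were at 36.3 FPKM (ATP6V1E1) or lower. Merged exon lengths in the table include rarely used exons (24849 bases for CTSC, for example), so FPKM understates the level of such genes.

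**Figure D1:**
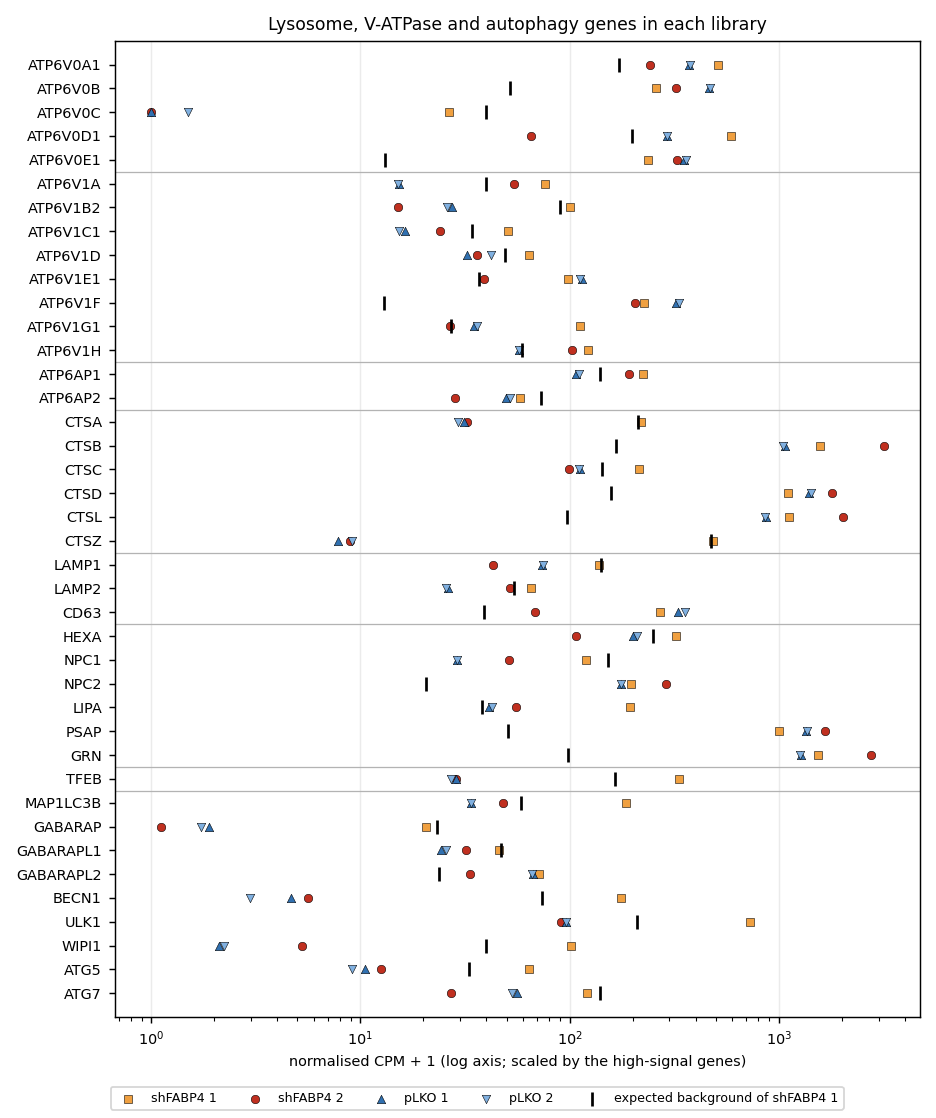
Normalised CPM plus 1 (log axis) of the 40 genes in each library, grouped by role from the V0 sector at the top to autophagy at the bottom; the vertical tick is the background expected in shFABP4 1. The pLKO points nearly coincide for most genes, while shFABP4 1 sits at or near its tick for genes of low level such as CTSZ (485 normalised CPM in shFABP4 1, against 6.78 and 8.10 in pLKO).

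A few genes were nearly absent from the table although the pump and the autophagy machinery need them. ATP6V0C, the main proton-carrying ring subunit, had 17 fragments in shFABP4 1 (25.9 expected from background) and 0 in shFABP4 2, against 0 and 7 in pLKO. GABARAP, a ubiquitin-like protein that is attached to autophagosome membranes, had 13 and 2 fragments in the shFABP4 libraries and 8 and 10 in pLKO. Of the exon bases of ATP6V0C (chromosome 16, 2513952 to 2520218, GRCh38), 76.3% are shared with exons of other gene names in the same table, and 60.9% with RP11-20I23.1 on the same strand. For GABARAP (chromosome 17, 7240008 to 7242449) the shared part is 48.2%, and its main partner CTD-2545G14.7 and RP11-20I23.1 both had 0 fragments in every library. The table's header shows no option to count a fragment that lies on more than 1 gene, and the tool then leaves such fragments out. The part of this in the low counts was not tested, and CTSD had 48.0% of its bases shared and was abundant. BECN1, WIPI1 and CTSZ, with 17.1%, 28.1% and 31.7% of bases shared, also had under 1 FPKM in both pLKO libraries. All genes but CTSD and these 5 shared at most 21.5% of their bases (CTSA). The share of BECN1 lies within the range of those genes. ATP6V1F and CTSA, with 20.6% and 21.5% shared, had mean pLKO levels of 429 and 3.39 FPKM.

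**Figure D2:**
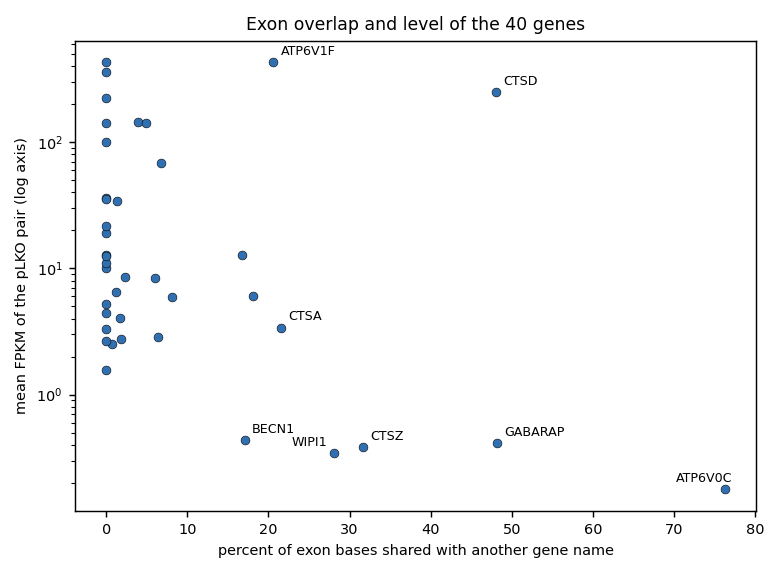
Percent of exon bases that each of the 40 genes shares with other gene names in the count table (horizontal axis) against its mean FPKM over the 2 pLKO libraries (log axis); each point is a gene. ATP6V0C at 76.3% and GABARAP at 48.2% lie at the bottom, while CTSD at 48.0% lies near the top.

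Pseudogene copies carried almost none of the signal outside shFABP4 1. Of 26 gene names formed from a gene of this group with P and a number, the pLKO libraries and shFABP4 2 held fragments in 2, CTSLP2 (5 and 10 in shFABP4, against 2 and 3 in pLKO) and ATP6V1G1P3 (17 and 0 in shFABP4, against 1 and 2 in pLKO).

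With all 4 libraries, no lysosomal, pump or autophagy gene passed an adjusted p of 0.05 in edgeR's quasi-likelihood test (0 of 39), and neither did any of the 14735 genes tested (0.0%). An unadjusted p under 0.05 was reached by 9 of the 39 genes, against 12.3% of all genes. These were WIPI1 upwards (8.06% of all genes) and ATP6V0D1, ATP6V1E1, ATP6AP2, LAMP1, CD63, HEXA, GABARAPL2 and ATG7 downwards (4.28% of all genes). DESeq2 called CD63 and ATP6V1E1 lower (2 of 39), while it called 4.88% of all genes, 3.72% higher and 1.16% lower. Limma-voom passed 0 genes. The median log2 fold change was -0.62 over the 39 genes and 0.34 over all genes. In shFABP4 1, 18 of the 40 genes held under 2 times their expected background and 7 held no more than the background, and the part of this in the fold changes was not tested. In bulk RNA a change in every cell and a change in some cells cannot be told apart.

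Among the high-signal genes, cathepsin B, cathepsin L, progranulin and NPC2 lay higher in both shFABP4 libraries than in both pLKO libraries, and the 4 pump subunits and CD63 lay lower in both. ATP6V1F alone passed the test (1 of 11 genes), where 22.4% of the 1040 genes passed, 10.6% upwards and 11.8% downwards (110 and 123 genes, or 143 and 99 with upper-quartile scaling). The median log2 fold change was -0.026 over the 11 genes and -0.047 over all 1040. Both shFABP4 libraries lay above both pLKO libraries for 34.7% of the 1040 genes and below for 41.3%. The split of the 11 genes is near those shares, so it does not set them apart from high-signal genes in general. The place of ATP6V1E1 among the lower genes has a limit given below. With 2 libraries a group an exact permutation test of a single gene cannot give a two-sided p under 0.333.

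ATP6V1F, part of the central stalk of the V1 sector, was at 226 and 205 normalised CPM in the shFABP4 libraries and at 323 and 331 in the pLKO libraries. All shFABP4 values lay below all pLKO values. Its counts were 150 and 3486 in shFABP4, with 7.93 expected from background in library 1, against 2906 and 4584 in pLKO. It fell by 0.61 on the log2 scale (SE 0.13, adjusted p = 0.0471, edgeR). The call ends with either pLKO library left out (adjusted p = 0.533 without pLKO 1 and 0.548 without pLKO 2, edgeR), and after correction for GC content and length the log2 fold change was -0.17 (adjusted p = 0.320, edgeR). Over all alternatives its adjusted p ranged from 2.1e-09 (without shFABP4 1) to 0.548. Of its exon bases 20.6% are shared with KCP, on the other strand, which had 540 and 6 fragments in the shFABP4 libraries and 7 and 9 in pLKO.

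ATP6V0B was at 259 and 320 normalised CPM in shFABP4 and at 461 and 469 in pLKO, with counts of 172 and 5432 against 4150 and 6490. The groups did not overlap, and its fitted difference of -0.68 on the log2 scale (SE 0.15, adjusted p = 0.0563, edgeR) missed the threshold. ATP6V0E1 was at 236 and 325 in shFABP4 and at 352 and 360 in pLKO (log2 fold change -0.33, SE 0.20, adjusted p = 0.277, edgeR). ATP6V1E1, a peripheral stalk subunit of V1, was at 97.8 and 37.8 normalised CPM in shFABP4 and at 114 and 111 in pLKO. Its 65 fragments in shFABP4 1 stand against 23.8 expected from background, and with that subtracted its value there is 62.1. The fitted difference was -0.83 on the log2 scale (SE 0.53, adjusted p = 0.298, edgeR). ATP6V1E1 passed the high-signal limit on its pLKO level, the group where it was higher, and was not in the set made from 3 libraries, so its side adds no support to that of the other subunits.

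CD63 was at 271 and 67.4 normalised CPM in shFABP4 and at 328 and 356 in pLKO. Both shFABP4 values lay below both pLKO values, but library 2 was far lower than library 1, in which 180 fragments were counted and 25.2 expected from background. The fitted difference was -1.09 on the log2 scale (SE 0.75, adjusted p = 0.328, edgeR). In limma-voom, CD63 was called lower along with ATP6V0B, ATP6V1E1 and ATP6V1F (4 of 11 genes, against 23.8% of the 1040 genes called lower, 19.0% higher and 42.8% either way). ATP6V1E1 is counted among these 4 but adds no support, for the reason given above.

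CTSB was at 1582 and 3176 normalised CPM in shFABP4 and at 1071 and 1052 in pLKO, with counts of 1051 and 53888 against 9638 and 14543. The groups did not overlap. With the 110 background fragments expected in shFABP4 1 subtracted, its value there is 1417, still above pLKO. The mean was 2379 ± 1127 in shFABP4 and 1062 ± 14.0 in pLKO (SD, n = 2 each), and the fitted difference of 1.17 on the log2 scale (SE 0.40, adjusted p = 0.116, edgeR) did not pass. CTSL was at 1120 and 2018 in shFABP4 and at 870 and 859 in pLKO (log2 fold change 0.87, SE 0.34, adjusted p = 0.143, edgeR). GRN, a secreted growth factor precursor that is also delivered to lysosomes, was at 1534 and 2756 in shFABP4 and at 1272 and 1266 in pLKO (0.76, SE 0.34, adjusted p = 0.178, edgeR). NPC2 was at 196 and 289 in shFABP4 and at 175 and 175 in pLKO (0.49, SE 0.24, adjusted p = 0.201, edgeR). With background subtracted, NPC2 in shFABP4 1 was at 176, next to the pLKO values. DESeq2 called CTSB, CTSL and GRN higher (3 of 11), while it called 35.6% of the 1040 genes, 19.3% higher and 16.2% lower. All 4 genes were closer to pLKO in shFABP4 1 than in shFABP4 2.

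CTSD and PSAP stood apart from these 4. CTSD was at 1105 and 1793 normalised CPM in shFABP4 and at 1397 and 1419 in pLKO, and PSAP at 996 and 1667 in shFABP4 and at 1353 and 1368 in pLKO. In both genes shFABP4 1 lay below the pLKO libraries and shFABP4 2 above them. The fitted log2 differences were 0.045 for CTSD (SE 0.29, adjusted p = 0.909, edgeR) and -0.026 for PSAP (SE 0.30, adjusted p = 0.951, edgeR). Without shFABP4 1, 6 of the 11 genes (CTSD and PSAP among them) were called higher and 4 lower, where 46.2% of the 1040 genes were called higher and 46.1% lower (92.2% in all).

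**Figure D3:**
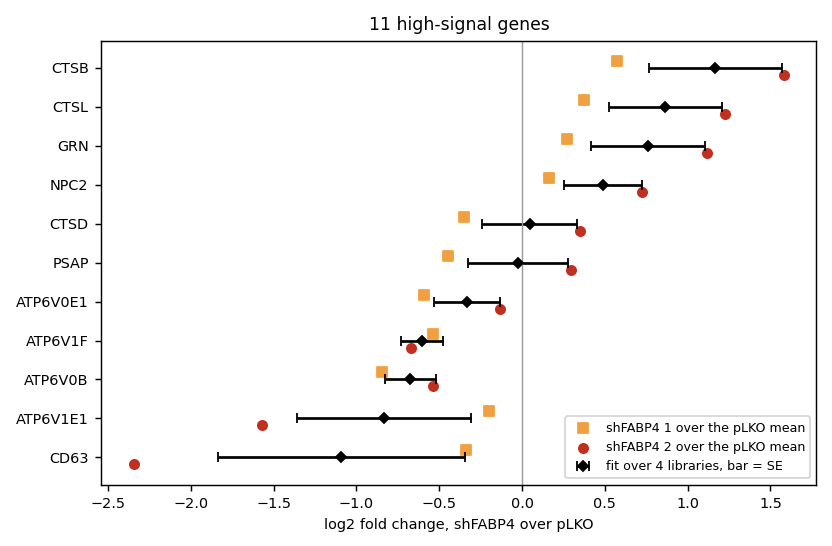
Log2 fold change of shFABP4 over pLKO for the 11 high-signal genes: black diamonds with SE from the fit over all 4 libraries, squares for shFABP4 1 and circles for shFABP4 2, each over the pLKO mean. CTSB is highest at 1.17 and CD63 lowest at -1.09; CTSD and PSAP have the 2 libraries on opposite sides of 0.

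Shares and ratios within a library need no scaling between libraries. CTSB held 20.8% of the fragments of the 11 genes in shFABP4 1 (95% Wilson interval 19.7 to 21.9) and 25.1% in shFABP4 2 (24.9 to 25.3), against 13.9% (13.6 to 14.1) and 13.5% (13.3 to 13.7) in pLKO. GRN held 20.1% and 21.8% in the shFABP4 libraries and 16.5% and 16.3% in pLKO, and CTSL 14.7% and 15.9% against 11.3% and 11.1%. For CTSB, GRN and CTSL both shFABP4 libraries were thus above both pLKO libraries, also with background subtracted in shFABP4 1 (20.6%, 20.9% and 14.9%). PSAP held 13.1% and 13.2% against 17.5% and 17.6%, and CTSD 14.5% and 14.2% against 18.1% and 18.3%. ATP6V0B held 3.40% and 2.53% against 5.98% and 6.04%, and ATP6V1F 2.96% and 1.62% against 4.19% and 4.27%. CTSB fragments per PSAP fragment numbered 1.59 and 1.91 in the shFABP4 libraries, against 0.792 and 0.769 in pLKO. CD63 did not separate in this way, at 0.272 and 0.0404 per PSAP fragment against 0.242 and 0.260. These pairs were picked after their values were seen and have no test, and the intervals cover counting error only. Shares of 1 sum are linked, so a larger part for CTSB lowers the part of the others.

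**Figure D4:**
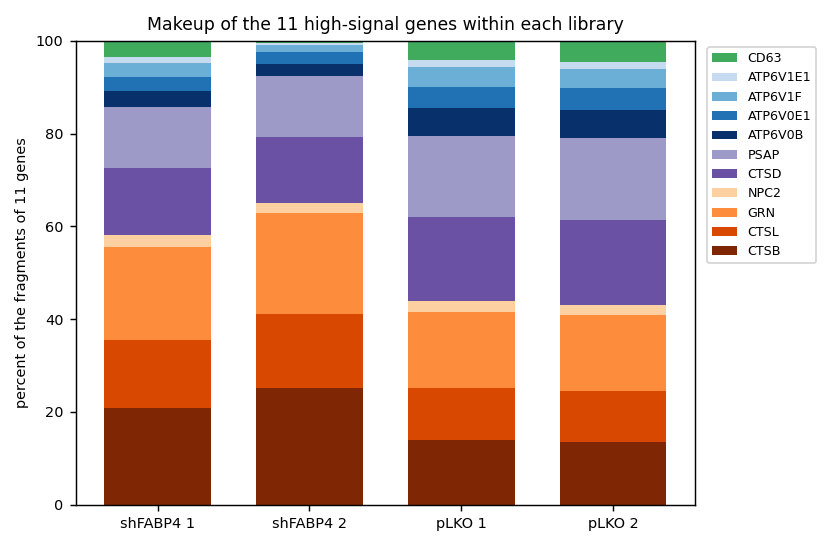
Share of each of the 11 high-signal genes in the fragments that all 11 hold, within each library (bars sum to 100%). The CTSB, CTSL and GRN segments at the bottom are larger in the shFABP4 libraries (CTSB 20.8% and 25.1%, against 13.9% and 13.5% in pLKO), and the V-ATPase segments near the top are smaller.

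All 18 genes under 2 times the background in shFABP4 1 were below the high-signal limit, so shFABP4 2 carries most of what can be read of them. Set against the pLKO pair, 10 of 39 genes were higher in shFABP4 2 and 22 lower (edgeR, adjusted p under 0.05), where 34.2% of the 15301 genes were higher and 32.7% lower. That test compares these libraries, not the conditions: the spread comes from the pLKO pair alone, and the lone shFABP4 library is taken to vary like it. The direction also depends on the scaling. By the high-signal genes, shFABP4 2 was scaled 0.51 lower on the log2 scale than by all genes, which moves every fold change up by that amount. All 10 higher genes were higher by both scalings, and 18 of the 22 lower genes were lower by both. CTSA, CTSD, PSAP and TFEB, lower by all genes, lay above 0 by the high-signal genes. The median log2 fold change of the 39 genes was -0.43 by all genes, beside 0.040 over all 15301, and 0.10 by the high-signal genes. The median over all genes moves up by the same 0.51, so the 0.10 cannot be set against 0.040.

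In the V0 sector all 4 tested subunits lay below pLKO in shFABP4 2 by both scalings. For ATP6V0E1 the difference was small by the high-signal genes, at -0.13 on the log2 scale (-0.65 by all genes). ATP6V0D1, subunit d, was at 64.7 normalised CPM in shFABP4 2 and at 292 in each pLKO library, or -2.69 on the log2 scale (SE 0.050, adjusted p = 7.81e-58, edgeR without shFABP4 1) and -2.18 by the high-signal genes. In shFABP4 1 it was at 590, or 391 with background subtracted, so library 1 lay above pLKO and library 2 below it. ATP6V0A1, subunit a, was at 509 in shFABP4 1 and 241 in shFABP4 2, against 370 and 377 in pLKO. With background subtracted it was at 338 in shFABP4 1, so that both shFABP4 libraries lay below pLKO. ATP6V0D1 and ATP6V0A1 each held 2.97 times their expected background in shFABP4 1. Their sides there rest on that mean rate, from which single genes strayed.

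In the V1 sector ATP6V1B2, ATP6V1D, ATP6V1E1, ATP6V1F and ATP6V1G1 had negative log2 fold changes in shFABP4 2 by both scalings. Those of ATP6V1A, ATP6V1C1 and ATP6V1H were positive by both. The median over the 8 subunits was -0.76 by all genes, beside 0.040 over all genes tested. ATP6V1A, the catalytic subunit, was at 75.3 and 53.2 normalised CPM in shFABP4 and at 14.2 and 14.2 in pLKO, above pLKO in both libraries by this scaling. Scaled by all genes, shFABP4 1 alone against pLKO gave -1.77 on the log2 scale. It was 1.39 higher in shFABP4 2 on the log2 scale (SE 0.12, adjusted p = 1.71e-17, edgeR without shFABP4 1), or 1.90 by the high-signal genes. Its 50 fragments in shFABP4 1 (exact Poisson interval 37.1 to 65.9) stand against 25.7 expected from background, and with these subtracted it was at 36.6. ATP6V1B2, the other subunit of the catalytic ring, was at 14.1 in shFABP4 2 and at 26.6 and 24.9 in pLKO, and in shFABP4 1 its 66 fragments were close to the 59.0 expected from background. ATP6V1H, a regulatory subunit, was at 122 and 102 in shFABP4 and at 56.1 and 56.3 in pLKO, or 63.8 in shFABP4 1 with background subtracted. ATP6V1C1 was at 49.7 and 23.0 in shFABP4 (16.4 in library 1 with background subtracted) and at 15.3 and 14.3 in pLKO. ATP6V1G1 was at 111 and 25.7 in shFABP4 and at 33.8 and 35.2 in pLKO, and stayed above pLKO in shFABP4 1 with background subtracted (85.3). ATP6V1D, called lower by all genes, was at 34.9 in shFABP4 2, between its pLKO values. RNA of the V1 subunits thus did not share 1 direction in shFABP4 2, and neither did the genes tested as a whole. Of the accessory proteins, ATP6AP1, which helps V0 to assemble, was at 192 in shFABP4 2 and at 106 and 109 in pLKO. In shFABP4 1 ATP6AP1 was at 223, or 84.3 with background subtracted. ATP6AP2, the prorenin receptor, was at 27.3 in shFABP4 2 and at 48.8 and 50.8 in pLKO. The log2 fold change of ATP6AP2 was -1.38 (adjusted p = 7.22e-23, edgeR without shFABP4 1).

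Of the other cathepsins, CTSC, which activates serine proteases of granules, was at 98.5 normalised CPM in shFABP4 2 and at 111 and 110 in pLKO. In shFABP4 1 CTSC was at 214, or 72.3 with background subtracted, so its side there rests on the mean rate. CTSA, a carboxypeptidase that also protects beta-galactosidase, was at 31.5 in shFABP4 2 and at 30.2 and 28.3 in pLKO. Both CTSC and CTSA were called lower by all genes, while CTSA lay above pLKO by the high-signal genes. CTSZ was at 7.96 in shFABP4 2 and at 6.78 and 8.10 in pLKO, and was not called. In shFABP4 1 the 145 CTSA and 322 CTSZ fragments were close to the 140 and 314 expected from background.

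The 2 best known lysosomal membrane glycoproteins differed in direction in shFABP4 2. LAMP1 was at 41.9 normalised CPM in shFABP4 2 and at 73.0 and 73.6 in pLKO (log2 fold change -1.32, SE 0.076, adjusted p = 1.66e-26, edgeR without shFABP4 1), and LAMP2 was at 50.7 in shFABP4 2 and at 25.3 and 24.7 in pLKO (0.51, SE 0.10, adjusted p = 9.78e-06, edgeR without shFABP4 1). By the high-signal genes these fold changes were -0.81 and 1.02. In shFABP4 1 both were near background, with 91 LAMP1 fragments against 92.9 expected and 43 LAMP2 fragments against 35.6.

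Among the lumenal and lipid-handling genes, HEXA, a subunit of beta-hexosaminidase, was at 106 normalised CPM in shFABP4 2 and at 200 and 209 in pLKO (log2 fold change -1.46, adjusted p = 1.40e-40, edgeR without shFABP4 1). In shFABP4 1 HEXA was at 322, above pLKO, or at 73.1 with background subtracted, below pLKO. Its 214 fragments there stand against 165 expected from background, so its side in shFABP4 1 rests on that mean rate. NPC1, the membrane partner of NPC2 in cholesterol export, was at 50.3 in shFABP4 2 and at 27.9 and 28.0 in pLKO. LIPA, the acid lipase that frees fatty acids and cholesterol, had 129 and 922 fragments in shFABP4 and 360 and 572 in pLKO, and was not called in shFABP4 2 against pLKO. In shFABP4 1 NPC1 held 79 fragments against 101 expected from background, while the LIPA background there was 24.6.

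TFEB was at 27.5 normalised CPM in shFABP4 2, between the 27.8 and 26.2 of pLKO, and was called lower only by all genes (log2 fold change -0.48). Its 220 fragments in shFABP4 1 stand against 109 expected from background. Of the 9 autophagy genes, GABARAP, GABARAPL2, ULK1 and ATG7 had negative log2 fold changes in shFABP4 2 by both scalings. Those of WIPI1, BECN1 and MAP1LC3B were positive by both. The median over the 9 genes was -0.14 by all genes, beside 0.040 over all genes tested. GABARAPL2, a relative of GABARAP, was at 32.5 in shFABP4 2 and at 66.1 and 64.8 in pLKO (log2 fold change -1.52, edgeR without shFABP4 1). In shFABP4 1 GABARAPL2 was at 70.7, above pLKO, or 48.0 once background was subtracted. ATG7, the activating enzyme of the conjugation systems, was at 26.1 in shFABP4 2 and at 54.8 and 52.0 in pLKO (-1.54, adjusted p = 7.96e-26, edgeR without shFABP4 1), and in shFABP4 1 its 80 fragments were below the 91.9 expected from background. The kinase ULK1, which starts autophagy, was at 732 and 89.6 in shFABP4 and at 94.8 and 95.4 in pLKO. In shFABP4 1 it was at 521 with background subtracted, far above pLKO, while it lay slightly below pLKO in shFABP4 2. The 486 ULK1 fragments in shFABP4 1 were 3.48 times the 140 expected from background. Background of a single gene can stray from its expected value, as for TYROBP above, and its part in this excess was not tested. MAP1LC3B, the usual marker of autophagosomes, was at 185 and 47.3 in shFABP4 and at 32.7 and 33.0 in pLKO, and GABARAPL1 at 31.1 in shFABP4 2, against 23.2 and 24.7 in pLKO. In shFABP4 1 GABARAPL1 had 30 fragments where 30.7 were expected from background, and MAP1LC3B had 123 where 38.1 were expected. Neither was called in shFABP4 2 against pLKO. WIPI1, which binds membranes where autophagosomes form, had 67 and 72 fragments in shFABP4 and 10 and 17 in pLKO. In normalised CPM it was at 101 and 4.24 in shFABP4 and at 1.11 and 1.23 in pLKO (log2 fold change 1.33, SE 0.38, edgeR without shFABP4 1). In shFABP4 1 WIPI1 had 25.7 fragments expected from background. BECN1 had 116 and 78 fragments in shFABP4 and 33 and 27 in pLKO (175 and 4.60 normalised CPM against 3.67 and 1.95). ATG5 had 42 and 196 against 86 and 112 (63.2 and 11.6 normalised CPM against 9.56 and 8.10). In shFABP4 1, 48.5 BECN1 and 21.4 ATG5 fragments were expected from background. Neither BECN1 nor ATG5 was called in shFABP4 2.

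**Figure D5:**
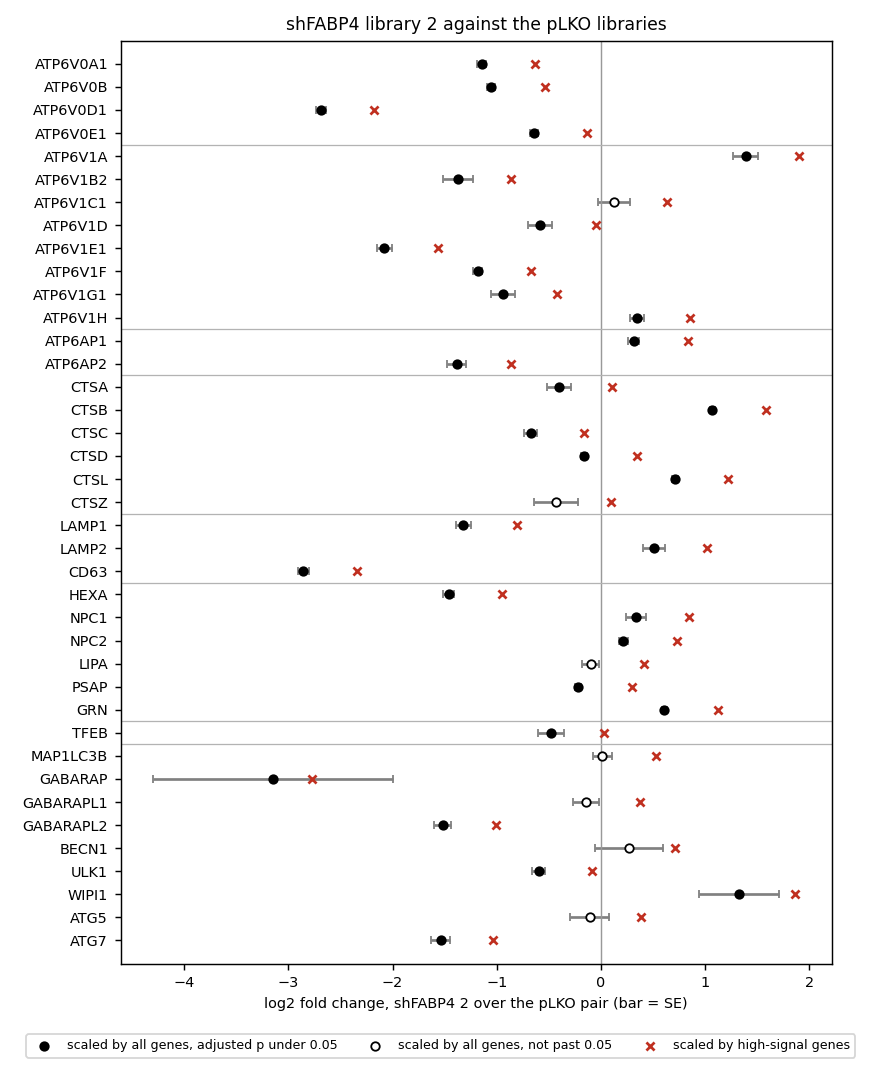
Log2 fold change of shFABP4 2 over the pLKO pair for 39 genes, by role from the V0 sector at the top to autophagy at the bottom: circles with SE scaled by all genes (filled where adjusted p was under 0.05), crosses scaled by the high-signal genes. The crosses lie about 0.51 to the right of the circles; GABARAP, with few fragments, CD63 and ATP6V0D1 lie far left (-3.15, -2.86 and -2.69) and ATP6V1A far right (1.39).

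All 7 genes with CACGTG in the promoter were lower in shFABP4 2 when scaled by all genes, from -2.86 for CD63 to -0.16 for CTSD, with a median of -1.05. Of the 23 tested genes with a promoter but no CACGTG, 15 lay below 0 (median -0.43). By the high-signal genes 5 of the 7 and 10 of the 23 lay below 0. Over all genes, the median was -0.0071 for 1334 genes with CACGTG and 0.041 for 9395 without. Of these, 50.3% with CACGTG and 48.6% without lay below 0 when scaled by all genes. Genes with CACGTG as a whole were thus not set to 1 side. For the high-signal scaling no share over all genes is given. The 7 genes had a median GC content of 55.2%, against 48.7% in the 23. Over 39 genes the log2 fold change in shFABP4 2 correlated with GC content at r = -0.13, and over 13599 genes at r = -0.23, across genes that are not independent replicates. The part of GC content in the difference was not tested.

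Other genes of the same pathways, taken from lists, were also called in both directions. Of 60 other lysosome genes tested in shFABP4 2 against pLKO, 29 were higher and 21 lower, and of 33 other autophagy genes 14 were higher and 10 lower (edgeR, adjusted p under 0.05, against 34.2% and 32.7% of all genes). Their median log2 fold changes were 0.24 and 0.17, beside -0.43 for the 39 genes, and this difference was not tested. With all 4 libraries 0 of 60 and 0 of 33 passed. Of the 7 other lysosome genes with high signal, 2 passed, 1 each way, where 22.4% of the 1040 high-signal genes passed, so the count is near that background. LAMTOR5, a subunit of the Ragulator complex that anchors nutrient sensing to the lysosome, was at 163 and 150 normalised CPM in shFABP4 and at 88.3 and 86.0 in pLKO, and rose by 0.84 (SE 0.14, adjusted p = 0.0328, edgeR). SMPD1, the acid sphingomyelinase, was at 179 and 157 in shFABP4 and at 263 and 262 in pLKO, and fell by 0.65 on the log2 scale (SE 0.14, adjusted p = 0.0490, edgeR). It passed the high-signal limit on its pLKO level, the group where it was higher, and was not in the set from 3 libraries. The SMPD1 call thus adds no support for a fall. Both calls end with either pLKO library left out (adjusted p from 0.454 to 0.517, edgeR) and with the replicate number as a block (0.0737 for LAMTOR5 and 0.118 for SMPD1). SMPD1 is also lost with RLE, upper-quartile and total-count scaling, DESeq2, the sets at 2 times the background and by length, and splines on GC content and length (-0.35, edgeR adjusted p = 0.151). LAMTOR5 is also lost with those 2 sets, and LAMTOR5 lay at -0.058 when scaled by all fragments. Over all alternatives the adjusted p ranged from 5.1e-10 to 0.980 for LAMTOR5 and from 2.9e-10 to 0.517 for SMPD1, both lowest without shFABP4 1.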

How the data were processed

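Counts from 2 shFABP4 and 2 pLKO libraries were analysed. TRIzol RNA, bead capture of mRNA and Tn5 fragmentation are given by the labels' protocols, and FastQC, HISAT, StringTie and GRCh38 by the submitters' processing notes. Per the file headers, the authors used featureCounts v2.0.0 to count fragments over exons by gene name, with an annotation file named GENCODE 38, leaving out chimeric fragments and setting no strand option. Overlapping and antisense genes therefore cannot be told apart, and near-identical copies may share fragments. The deposited exon length, a value of other kind, served for background and FPKM. The name ANK2, broken over 7 lines, was not used. Between the pLKO libraries, chi-square per degree of freedom was 2.06 (15446 genes), so both were kept.

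edgeR 4.0.16 in R 4.3.3 was the test: TMM, filterByExpr (a minimum count of 10, scaled to depth, in as many libraries as the smaller group has, and 15 in total), the robust quasi-likelihood test, two-sided, p adjusted by Benjamini-Hochberg across every gene of a fit, threshold 0.05. Alternatives were DESeq2 1.42.0, limma 3.58.1 (voom), other scalings, no filter, other high-signal sets, subtracted background, splines on GC content and length (4 degrees of freedom), the replicate number as a block and each library left out. Background in shFABP4 1 came from 2667 coding genes at 0 elsewhere, in 6 bins of GC content (GENCODE 29 transcripts). The members, lists and alternatives were chosen with earlier results of these data known. By rule, all 40 genes are accounted for, with full values for those that passed and for the 4 largest fold changes each way among high-signal genes. The estimated coefficient of variation was 0.683 over all genes and 0.219 over high-signal genes, so the fit over all genes could pass only very large differences. Poisson and Wilson intervals are at 95% and cover counting error only.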

Additional observations from a re-analysis of the deposited data

How the results depend on the processing

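Over all genes tested, the count of the 40 genes called was 0 in edgeR and stayed at 0 with the other scalings, no filter, limma-voom, the replicate block and background subtraction. It was 2 with DESeq2 and ranged from 0 to 39 with a library left out, and their median log2 fold change ranged from -3.15 to -0.43 with a library left out (-0.62 with all). Without shFABP4 1 the count was 32, and without shFABP4 2 it was 39. Among high-signal genes the count was 1. It was 0 with RLE, upper-quartile and total-count scaling, with the set at 2 times the background or from length only, with the replicate block, with correction for GC content and length and with background subtracted. It was 2 with the set from 3 libraries, 3 with DESeq2 and 4 with limma-voom, and ranged from 0 to 10 with a library left out. The calls under the alternatives were not of the same genes: ATP6V0B at 10 times the background, ATP6V0B and ATP6V1F with the set from 3 libraries. The median of the 11 genes was -0.73 with total-count scaling, where the median of all 1040 genes was -0.91. The median of all genes in the fit over all genes was 0.34 under TMM, 0.26 under RLE, 0.57 under the upper quartile and 0.996 under library totals. The cause of these differences was not tested.

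Direction among high-signal genes turned for CTSD (-0.66 with total-count scaling, -0.090 at 2 times the background, -0.054 with the set from 3 libraries, -0.042 with limma-voom, and -0.35 to 0.43 with a library left out) and for PSAP (0.044 with RLE, 0.043 with DESeq2, 0.063 with upper-quartile scaling, 0.10 at 10 times the background, 0.078 with background by length, 0.13 with correction for GC content and length, 0.053 with background subtracted, and -0.45 to 0.37 with a library left out). With total-count scaling NPC2 was at -0.26 and LAMTOR5 at -0.058. ATP6V0B, ATP6V0E1, ATP6V1E1, ATP6V1F, CTSB, CTSL, CD63, GRN and SMPD1 kept their direction under all alternatives that gave a value. For ATP6V1E1 and SMPD1, which passed the high-signal limit on the group where they were higher, this adds no support. Over all genes, CTSB turned to -1.24 with limma-voom and to -0.67 with the replicate block, and CTSL, GRN and LAMP2 to 0.19, 0.085 and 0.25 with total-count scaling. CTSL was at 0.026 with background subtracted. With a library left out CTSB ranged from -3.61 to 1.07, CTSL from -3.81 to 0.71, GRN from -3.91 to 0.61, LAMP2 from -2.80 to 0.51 and ATP6V1A from -1.77 to 1.39.

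The labels do not say that a replicate number marks a shared batch. Deviations of same-numbered libraries correlated at 0.011 over all tested genes and at 0.11 over high-signal genes, and the replicate block gave 28 calls over all genes, against 0 without it. Among high-signal genes the block gave 117 higher and 136 lower calls, against 110 and 123 without it, and ended the ATP6V1F call. Over all genes, 0 calls became 69 with no filter, 719 with DESeq2, and up to 15744 higher and 8151 lower with a library left out (shFABP4 2). Among the 1040 high-signal genes, 233 calls became 2 with total-count scaling, 370 with DESeq2, 445 with limma-voom, and 1 to 959 with a library left out. They became 188 higher and 164 lower of 1059 with the set from 3 libraries, and 0 of 2128 and 0 of 1284 at 2 times the background and with background by length. The depth of shFABP4 1 limits every gene whose count there is near its expected background.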
